A study of Homo sapiens with 16 samples.

Results

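The facilitative glucose transporters of 2 estrogen receptor-negative human breast cancer cell lines were examined in low and high glucose. The set held 8 genes of the SLC2A (GLUT) family, namely SLC2A1, SLC2A3, SLC2A4, SLC2A6, SLC2A8, SLC2A10, SLC2A12 and SLC2A13, chosen by name from the 18332 genes of the expression table. RNA sequencing covered 16 samples in 4 groups of 4 replicates: MDA-MB-231 and MDA-MB-468 cells, each held over 48 hours either at 5 mM glucose, called low glucose and serving as control, or at 25 mM, called high glucose and standing for hyperglycemia. Per the study's methods, all cells were first conditioned in low-glucose medium and the glucose media contained no serum. No genetic change or drug was part of any group, and no mannitol control for osmolarity was among these samples. MDA-MB-231 was routinely grown in DMEM and MDA-MB-468 in RPMI, so that for a difference between the lines the line and its routine medium cannot be told apart. Each line represents 1 patient's tumor, and the labels describe replicates as flasks without saying whether they came from separate passages, so p-values measure the spread between these samples, which may be technical.

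GLUT proteins carry hexoses across membranes down the concentration gradient, and the cell traps the imported glucose by phosphorylation through hexokinases. Class I members (GLUT1, GLUT3, GLUT4) act mainly at the cell surface, where GLUT1 provides basal uptake, GLUT3 has a high affinity for glucose, and GLUT4 is moved to the surface in response to insulin in muscle and fat. The remaining genes belong to class III, whose proteins are largely found on internal membranes: GLUT6 and GLUT8 on lysosomes and endosomes, GLUT10 in the secretory pathway and mitochondria, where it is linked to dehydroascorbic acid transport, GLUT12 as an insulin-responsive relative of GLUT4, and the SLC2A13 product HMIT as a proton-coupled myo-inositol transporter rather than a glucose carrier. GLUT1 is commonly abundant in breast cancer cells.

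Libraries held between 14094597 and 24425916 reads. Values are normalized reads, meaning reads per gene divided by a size factor for the library, and 3 reads in a library corresponded to 2.14 to 3.43 normalized reads. Replicate libraries were distinct, since the chi-square between replicate pairs was 2.02 to 5.20 per gene against about 1 for pure counting error, and no library was a duplicate of another. MDA-MB-231 low glucose replicate 4 stood apart, at 3.83 to 5.20 against the other libraries of its group, which gave 2.13 to 2.66 among themselves. The labelled lines were compared by marker genes, which were chosen with earlier results of these data known and so give no independent check. The mesenchymal markers VIM, ZEB1 and AXL were abundant in MDA-MB-231, with VIM at a mean of 96230 normalized reads in low glucose against 21.5 in MDA-MB-468, although SPARC was close to the floor of 3 reads in both lines and CD44 was high in both. The epithelial and basal markers CDH1, EPCAM, KRT5 and KRT17 were high in MDA-MB-468, while KRT6A was low there, at 17.5 and 29.4 normalized reads in low and high glucose, and had 0 reads in every MDA-MB-231 library. EGFR, also listed as a basal marker, was abundant in both lines, at 62680 normalized reads in low-glucose MDA-MB-468 and 9138 in low-glucose MDA-MB-231. ESR1, the estrogen receptor gene, averaged 1.31 normalized reads in low-glucose MDA-MB-231 and 57.9 in low-glucose MDA-MB-468. Of the other luminal markers, TFF1 had 22.1 normalized reads in low-glucose MDA-MB-231 and 0 in every MDA-MB-468 library, GATA3 averaged 143.4 and 621.3 in low-glucose MDA-MB-231 and low-glucose MDA-MB-468, and PGR was not found by symbol.

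Promoter sequences were available for 6 of the 8 genes in RefSeq (GRCh38.p14), while SLC2A3 and SLC2A4 had no entry. The 250 bases upstream of the annotated start are given for the 4 genes with an entry whose transcript differed between low and high glucose in at least one line. Each is written 5′ to 3′ on the gene's own strand. Capitals mark, on either strand, the GC box GGGCGG (a binding motif of SP1-type factors) and ACGTG, a core form of the hypoxia response element. The other core form, GCGTG, was neither searched nor marked.
SLC2A1 (chr1:42958869-42959118, minus strand): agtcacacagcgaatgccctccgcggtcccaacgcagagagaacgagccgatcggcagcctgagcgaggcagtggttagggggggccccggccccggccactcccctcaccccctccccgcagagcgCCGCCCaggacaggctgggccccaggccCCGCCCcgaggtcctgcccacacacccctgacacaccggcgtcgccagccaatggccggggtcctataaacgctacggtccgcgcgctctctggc
SLC2A6 (chr9:133479100-133479349, minus strand): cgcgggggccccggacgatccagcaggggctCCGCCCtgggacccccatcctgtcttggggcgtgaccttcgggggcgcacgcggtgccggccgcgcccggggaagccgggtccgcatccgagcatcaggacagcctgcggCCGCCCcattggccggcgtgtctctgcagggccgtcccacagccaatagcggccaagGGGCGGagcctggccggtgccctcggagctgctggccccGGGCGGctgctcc
SLC2A8 (chr9:127396919-127397168, plus strand): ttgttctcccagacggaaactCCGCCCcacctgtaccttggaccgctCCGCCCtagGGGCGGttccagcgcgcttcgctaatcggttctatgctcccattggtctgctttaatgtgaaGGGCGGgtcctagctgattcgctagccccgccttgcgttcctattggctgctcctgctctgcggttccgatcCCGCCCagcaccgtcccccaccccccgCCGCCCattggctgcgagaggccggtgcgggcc
SLC2A10 (chr20:46709399-46709648, plus strand): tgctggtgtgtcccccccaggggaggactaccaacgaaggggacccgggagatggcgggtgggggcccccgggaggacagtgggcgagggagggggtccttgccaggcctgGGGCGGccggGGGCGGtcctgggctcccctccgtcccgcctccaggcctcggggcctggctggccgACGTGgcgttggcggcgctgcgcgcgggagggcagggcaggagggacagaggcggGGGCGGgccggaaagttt
The GC box occurred 2 times upstream of SLC2A1, 4 times upstream of SLC2A6, 6 times upstream of SLC2A8 and 3 times upstream of SLC2A10, and 42.6% of 35116 RefSeq promoter windows of the same length held at least 1. The ACGTG form was present 1 time in the window of SLC2A10, 73 bases before the start, and in 18.5% of all windows. SLC2A1 held the TATA box TATAAA 31 bases before its start, a motif found in 10.7% of windows, and the CCAAT motif was found in the windows of SLC2A1, SLC2A6, SLC2A8 and SLC2A13 and in 32.0% of all windows. With a GC content of 76.8% each, SLC2A6 and SLC2A10 lay above SLC2A1 (72.4%) and SLC2A8 (65.2%), and the median window had 58%. SLC2A13, which did not change with glucose at the threshold in either line, had 5 GC boxes and 1 E-box (CACGTG, in 6.35% of windows, whose 5-base core also matches ACGTG), whereas SLC2A12 held none of the 5 motifs searched. These letter matches are descriptions of the reference sequence and carry no information on binding.

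All 8 transporters passed the filter on low values in both lines and were tested. SLC2A1 dominated the set in every group. To compare genes, reads were scaled to transcript length and library size (RPKM). SLC2A1 reached 161 ± 6.30 RPKM (SD, n = 4) in low-glucose MDA-MB-231 and 136.2 ± 3.36 in high-glucose MDA-MB-231, against 52.8 ± 1.79 and 53.0 ± 0.571 in low- and high-glucose MDA-MB-468. That was 77.8%, 73.2%, 75.1% and 71.8% of the summed RPKM of the 8 genes in the same order of groups. The summed level was 206.9 and 186 RPKM in low- and high-glucose MDA-MB-231, and 70.3 and 73.8 RPKM in low- and high-glucose MDA-MB-468.

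The order behind SLC2A1 differed between the lines. In low-glucose MDA-MB-231, SLC2A3 (20.4 ± 0.336 RPKM) came next and SLC2A6 (18.1 ± 0.690) followed, without overlap of their replicates, whereas in high glucose their replicates overlapped (21.4 ± 1.15 and 20.6 ± 0.567 RPKM). SLC2A8, SLC2A12, SLC2A13, SLC2A10 and SLC2A4 followed in this order in both conditions, each apart from its neighbor, from 3.03 RPKM for SLC2A8 down to 0.387 RPKM for SLC2A4 in low glucose. In low-glucose MDA-MB-468, SLC2A12 (5.14 ± 0.441 RPKM), SLC2A8 (4.72 ± 0.846) and SLC2A6 (4.44 ± 0.966) followed SLC2A1, and neighbors in this order overlapped. In high-glucose MDA-MB-468, SLC2A8 (6.19 ± 0.787 RPKM) stood above SLC2A6 (5.10 ± 0.207) and SLC2A12 (4.95 ± 0.448), which overlapped, and SLC2A10 came next with 3.74 ± 0.462 RPKM. The lowest levels of the set in MDA-MB-468 were those of SLC2A13 (0.133 ± 0.0186 RPKM in low and 0.149 ± 0.0392 in high glucose) and SLC2A3 (0.391 ± 0.0520 RPKM in low and 0.0585 ± 0.0405 in high glucose), and these genes overlapped in high glucose. SLC2A11, a GLUT gene outside the set, had 6.84 ± 0.289 RPKM in low-glucose MDA-MB-468, above every SLC2A12 and SLC2A8 library. It had 5.48 ± 0.527 RPKM in high-glucose MDA-MB-468. In MDA-MB-231 it had 1.23 ± 0.215 RPKM in low and 1.68 ± 0.197 in high glucose.

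**Figure D1:**
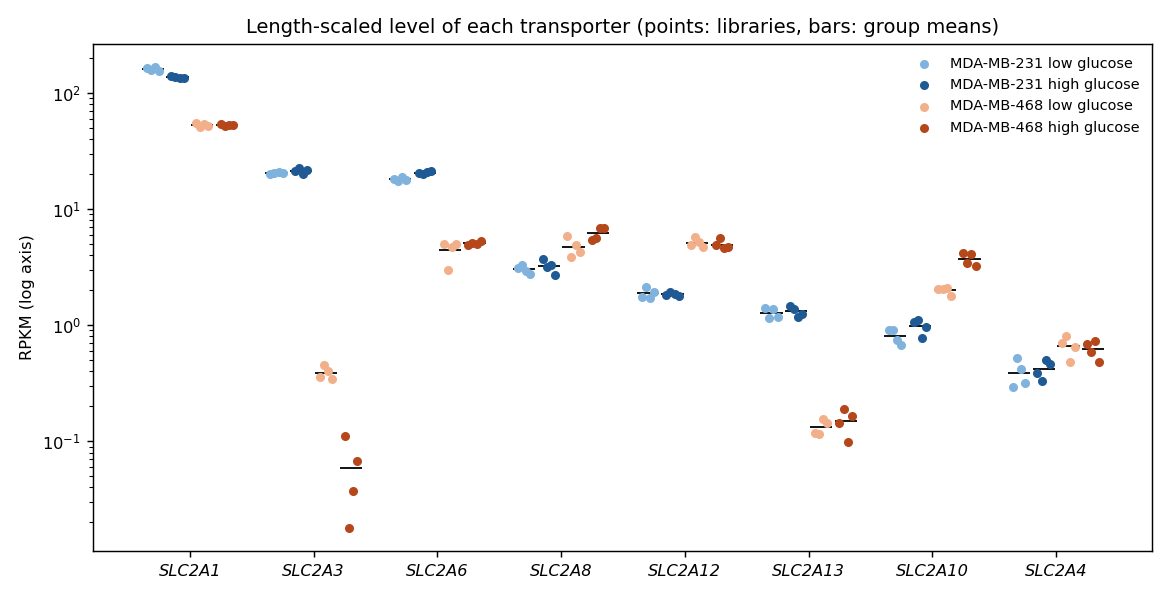
RPKM of each transporter in every library on a log axis, grouped by gene, with points for the 4 libraries of each group and black bars for group means. SLC2A1 lies above the other genes in every group, and SLC2A3 drops from 20.4 RPKM in low-glucose MDA-MB-231 to 0.391 in low-glucose MDA-MB-468 and 0.0585 in high-glucose MDA-MB-468.

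The response to high glucose was tested in each line with limma on log2(normalized reads + 1), so that fold changes of low genes are understated. In MDA-MB-231, 2 of the 8 transporters passed an adjusted p of 0.05, where 15.1% of all 14884 genes tested did. SLC2A6 was upregulated, with 5.71% of all genes called higher in high glucose, and SLC2A1 was downregulated, with 9.37% called lower. In MDA-MB-468, 3 of the 8 passed, and the background was 47.6% of 15757 genes: SLC2A8 and SLC2A10 were upregulated (24.9% of all genes called higher) and SLC2A3 was downregulated (22.7% called lower). Both shares lie near the background, so the number of changed transporters is not a result about the family. The groups did not overlap for SLC2A1 and SLC2A6 in MDA-MB-231, against 18.7% of all genes, and for SLC2A3 and SLC2A10 in MDA-MB-468, against 42.5%. SLC2A3 entered the MDA-MB-468 test only through its low-glucose libraries and had 1 to 7 reads per high-glucose library. Its call and its lack of overlap there thus rest on a gene near the detection limit. The median log2 fold change of the 8 genes was 0.05 for MDA-MB-231 and 0.10 for MDA-MB-468, where all genes gave 0.00 in each line. No transporter passed the threshold in both lines.

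**Figure D2:**
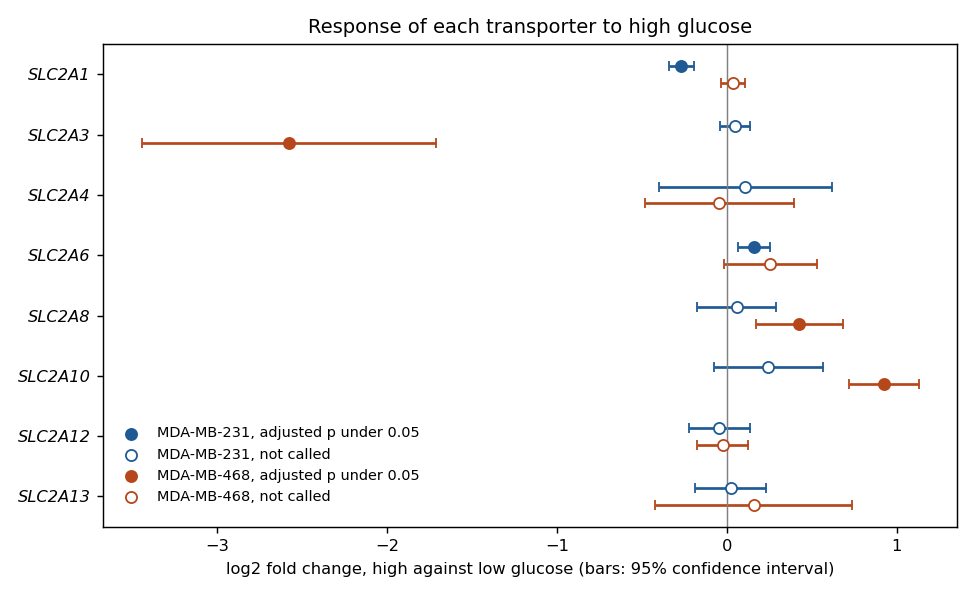
Log2 fold change of each transporter in high against low glucose (x axis) in both lines, with bars for the 95% confidence interval and filled symbols for an adjusted p under 0.05 in limma. SLC2A1 (-0.27) and SLC2A6 (0.16) are filled for MDA-MB-231, and SLC2A3 (-2.58), SLC2A8 (0.43) and SLC2A10 (0.92) for MDA-MB-468. In MDA-MB-468, SLC2A3 passed the filter only through its low-glucose libraries.

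Among the class I genes, SLC2A1 (ENSG00000117394, chromosome 1, 43391024 to 43424564, GRCh37, minus strand) fell in high-glucose MDA-MB-231. Its low-glucose replicates 1 to 4 held 9739.8, 9260.8, 9860.8 and 8944.6 normalized reads, and the high-glucose replicates 8176.5, 7829.9, 7652.5 and 7751.7. Every high-glucose library lay below every low-glucose library. The mean went from 9452 ± 425.8 to 7853 ± 227.8, a ratio of high to low of 0.831 and a log2 fold change of -0.27 (adjusted p 2.88e-05 in limma, SE 0.03), and the call held in 18 of 18 alternative analyses. Since values are relative to the whole library, less SLC2A1 RNA per cell and more of other RNA cannot be told apart, as holds for every bulk value given here.

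SLC2A1 did not change beyond the replicate spread in MDA-MB-468. Its low-glucose replicates held 2907.8, 2708.5, 2869.0 and 2745.8 normalized reads, and those in high glucose 2916.5, 2812.9, 2888.8 and 2903.0. The ranges overlapped, and the log2 fold change was 0.04 with a 95% interval of -0.03 to 0.11 (limma adjusted p 0.365). The difference of the response between the lines, the interaction term over all 16 samples, was 0.30 (adjusted p 8.17e-05 in limma, SE 0.05). SLC2A1 was 3.37-fold lower in MDA-MB-468 than in MDA-MB-231 in low glucose and 2.73-fold lower in high glucose, log2 differences of -1.75 and -1.45 (limma adjusted p 2.68e-18 and 3.75e-17).

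SLC2A3 (ENSG00000059804, chromosome 12, 8071826 to 8171603, GRCh37, minus strand) separated the lines more than any other transporter of the set. In MDA-MB-231 it held 1335.5, 1339.6, 1386.8 and 1340.7 normalized reads in low glucose, and 1405.1, 1477.8, 1289.2 and 1419.1 in high glucose. These ranges overlapped, with a log2 fold change of 0.05 and a 95% interval of -0.04 to 0.14 (adjusted p 0.522 in limma). MDA-MB-468 had this gene close to the detection limit, with 21.4, 27.6, 24.5 and 20.7 normalized reads in low glucose (23 to 28 reads per library) and 6.8, 1.1, 2.3 and 4.2 in high glucose (1 to 7 reads per library).

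The MDA-MB-468 groups did not overlap, and SLC2A3 fell by 2.58 on the log2 scale (adjusted p 7.02e-05 in limma, SE 0.41). Summed over the 4 libraries, 103 reads in low glucose stood against 15 in high glucose, a depth-corrected ratio of 6.21 with a 95% counting interval of 3.60 to 11.5, which covers counting error only. The gene passed the filter in this line only through its low-glucose libraries. The interaction term was -2.62 (adjusted p 4.38e-05 in limma, SE 0.37). MDA-MB-231 held 57.9 times as many SLC2A3 reads as MDA-MB-468 in low glucose (counting interval 47.7 to 71.1), and the limma differences between the lines were -5.79 in low and -8.42 in high glucose (adjusted p 7.42e-13 and 3.76e-15). In high glucose the ratio rested on the 15 reads of MDA-MB-468 and its counting interval reached from 225.6 to 665.8.

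SLC2A3 has a closely related copy, SLC2A14 (ENSG00000173262, chromosome 12, 7965108 to 8043744, GRCh37, minus strand), which encodes GLUT14. Of the 50-base windows of the SLC2A3 transcript, 23.5% also occurred in SLC2A14, so the assignment of reads between these genes is uncertain. In MDA-MB-231 SLC2A3 took 99.8% and 99.95% of their joint value in low and high glucose, whereas in MDA-MB-468 it took 31.8% and 12.9%. SLC2A14 itself went from 50.9 ± 8.27 to 24.9 ± 8.44 normalized reads in MDA-MB-468, a log2 fold change of -1.05 (limma adjusted p 0.00142). With both genes summed, MDA-MB-468 went from 74.5 ± 9.03 to 28.5 ± 9.70 normalized reads and the log2 fold change was -1.40 (limma adjusted p 3.3e-05). The joint fall was smaller on the log2 scale than that of SLC2A3 alone. The joint value also differed less between the lines, with log2 differences of -4.17 in low and -5.62 in high glucose (limma adjusted p 4.82e-14 and 7.37e-16).

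SLC2A4 (ENSG00000181856, chromosome 17, 7185037 to 7191576, GRCh37, plus strand) was low in every group. Its means were 22.6 ± 6.06 and 24.2 ± 4.40 normalized reads in low- and high-glucose MDA-MB-231 and 35.0 ± 7.40 and 33.7 ± 6.12 in MDA-MB-468. The log2 fold change with high glucose was 0.11 (95% interval -0.40 to 0.62) in MDA-MB-231 and -0.04 (-0.48 to 0.39) in MDA-MB-468, with limma adjusted p 0.826 and 0.879. At 18 to 47 reads per library these intervals leave room for changes in either direction. SLC2A4 was higher in MDA-MB-468 in low glucose by 0.61 on the log2 scale (limma adjusted p 0.0136), though replicates of the lines overlapped and the call was lost under quantile rescaling (adjusted p 0.419) and without MDA-MB-231 low glucose replicate 1 (adjusted p 0.0505). In high glucose the difference between the lines was 0.46 (limma adjusted p 0.0545), and it passed the threshold in 5 of 24 alternatives, the stricter filter and 4 left-out libraries, with a lowest adjusted p of 0.0277.

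**Figure D3:**
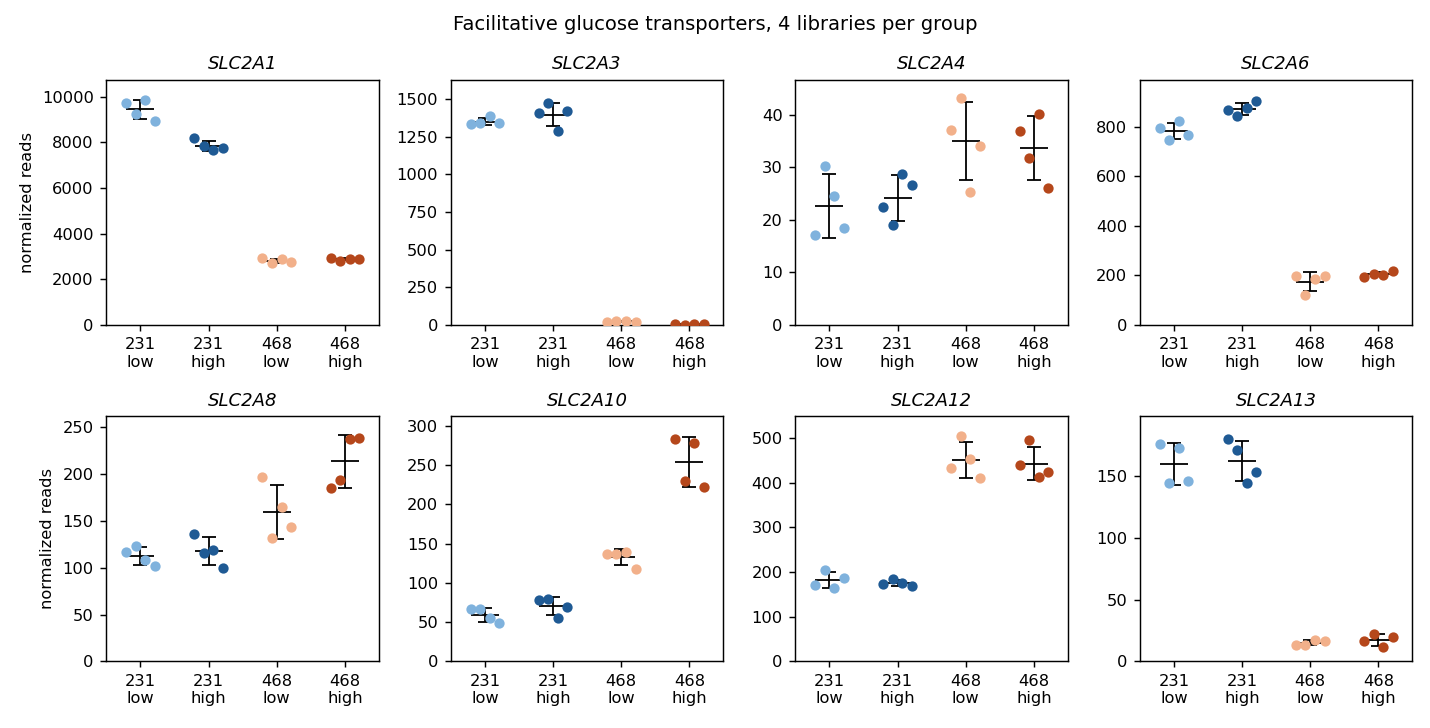
Normalized reads of the 8 transporters in every library (y axes from 0, a different scale per gene), with points for libraries and black bars for the mean ± SD of 4 replicates; the x labels shorten MDA-MB-231 and MDA-MB-468 to their digits. SLC2A1 falls in high-glucose MDA-MB-231 (9452 to 7853), SLC2A10 rises in high-glucose MDA-MB-468 (132.7 to 253.8), and SLC2A3, SLC2A6 and SLC2A13 are lower in MDA-MB-468 in both conditions.

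The class III genes gave the upregulated transporters. SLC2A10 (ENSG00000197496, chromosome 20, 45338288 to 45364986, GRCh37, plus strand) showed the largest rise. In MDA-MB-468 its low-glucose replicates held 136.8, 137.1, 139.2 and 117.7 normalized reads, and its high-glucose replicates 283.9, 230.5, 278.1 and 222.5. All high-glucose libraries were above all low-glucose libraries, with a ratio of means of 1.91 and a log2 fold change of 0.92 (adjusted p 7.67e-07 in limma, SE 0.10).

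In MDA-MB-231 SLC2A10 held 67.2, 66.5, 54.8 and 49.3 normalized reads in low glucose, and 77.8, 79.9, 55.7 and 69.4 in high glucose. These ranges overlapped and the log2 fold change was 0.25 with a 95% interval of -0.08 to 0.57 (limma adjusted p 0.324). The responses of the lines differed by 0.68 (adjusted p 0.00992 in limma, SE 0.19), a call that held in 26 of 26 alternatives. SLC2A10 was also higher in MDA-MB-468 than in MDA-MB-231 at either glucose level, by 1.15 on the log2 scale in low and 1.83 in high glucose (limma adjusted p 2.61e-07 and 4.8e-10).

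SLC2A8 (ENSG00000136856, chromosome 9, 130159417 to 130170703, GRCh37, plus strand) rose in MDA-MB-468. It held 196.9, 131.6, 164.5 and 143.7 normalized reads in low glucose, and 184.7, 193.4, 236.9 and 238.5 in high glucose. Low-glucose replicate 1 lay above 2 of the high-glucose libraries, so the ranges overlapped, and the mean went from 159.2 ± 28.6 to 213.4 ± 28.4. The log2 fold change was 0.43 (adjusted p 0.00748 in limma, SE 0.12), and over 18 alternatives the adjusted p ranged from 0.0012 to 0.0298.

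In MDA-MB-231 SLC2A8 averaged 112.7 ± 9.49 and 117.7 ± 14.9 normalized reads in low and high glucose, a log2 fold change of 0.06 with a 95% interval of -0.18 to 0.29 (limma adjusted p 0.795). The interaction term of 0.37 did not pass the threshold (95% interval -0.01 to 0.75, limma adjusted p 0.138), so a difference between the lines was not shown. It passed in 1 of 26 alternatives, without MDA-MB-468 low glucose replicate 1 (adjusted p 0.0438). SLC2A8 was higher in MDA-MB-468 than in MDA-MB-231 in low glucose (log2 difference 0.48, limma adjusted p 0.00219) and in high glucose (0.85, adjusted p 8.41e-06).

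SLC2A6 (ENSG00000160326, chromosome 9, 136336216 to 136344249, GRCh37, minus strand) rose slightly in MDA-MB-231. It held 793.1, 747.6, 824.7 and 764.9 normalized reads in low glucose, and 868.9, 844.6, 875.9 and 903.6 in high glucose. The groups did not overlap, and the log2 fold change was 0.16 (adjusted p 0.0247 in limma, SE 0.05). In 7 of 18 alternatives it was no longer called: the replicate block (adjusted p 0.0533), corrections for length (0.0535) and GC content (0.0813), and leaving out MDA-MB-231 low glucose replicate 2 or high glucose replicate 1, 3 or 4.

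In MDA-MB-468 SLC2A6 held 196.1, 118.3, 185.6 and 195.8 normalized reads in low glucose and 194.4, 203.2, 202.6 and 215.8 in high glucose. Low-glucose replicate 2 stood below the others, the ranges overlapped, and the log2 fold change of 0.26 had a 95% interval of -0.02 to 0.53 (limma adjusted p 0.114). The lines' responses differed by 0.10 (limma adjusted p 0.699, 95% interval -0.25 to 0.44). SLC2A6 was lower in MDA-MB-468 by 2.19 on the log2 scale in low glucose and by 2.09 in high glucose, and here limma gave adjusted p 5.44e-12 and 1.09e-11.

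SLC2A12 (ENSG00000146411, chromosome 6, 134308719 to 134373762, GRCh37, minus strand) and SLC2A13 (ENSG00000151229, chromosome 12, 40148827 to 40499891, GRCh37, minus strand) differed between the lines in opposite directions and were not called with glucose. SLC2A12 averaged 181.5 ± 17.7 and 175.3 ± 6.51 normalized reads in low- and high-glucose MDA-MB-231 and 450.5 ± 40.3 and 442.6 ± 36.6 in MDA-MB-468. Its log2 fold change with glucose was -0.05 (95% interval -0.23 to 0.13) in MDA-MB-231 and -0.02 (-0.17 to 0.13) in MDA-MB-468, and it was higher in MDA-MB-468 by 1.31 in low and 1.33 in high glucose (limma adjusted p 3.72e-11 and 3.06e-11). The 3′ end of SLC2A12 overlaps TBPL1 on the opposite strand over 2852 bases. TBPL1 held 168 to 328 normalized reads per library, and whether counting used strand is not given in the sources used here, so its share in the SLC2A12 value was not tested.

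SLC2A13 averaged 159.4 ± 16.8 and 161.9 ± 16.3 normalized reads in low- and high-glucose MDA-MB-231, against 15.1 ± 2.08 and 17.3 ± 4.47 in MDA-MB-468. The lines did not overlap, with log2 differences of -3.32 in low and -3.18 in high glucose (limma adjusted p 3.43e-12 and 6.44e-12). The glucose response was 0.02 (95% interval -0.19 to 0.23) in MDA-MB-231 and 0.16 (-0.42 to 0.74) in MDA-MB-468. Within the set, SLC2A13 thus had the largest difference between the lines after SLC2A3.

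Across the lines, all 8 transporters differed in low glucose, 4 being higher and 4 lower in MDA-MB-468, where 85.4% of all 17115 genes tested differed. In high glucose 7 of 8 differed, 3 higher and 4 lower, against 85.2% of all genes. SLC2A1, SLC2A3, SLC2A6 and SLC2A13 were lower in MDA-MB-468 in both conditions, and SLC2A8, SLC2A10 and SLC2A12 were higher in both. The interaction term passed the threshold for 3 of the 8 transporters, SLC2A1, SLC2A3 and SLC2A10, against 30.9% of all genes.

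The remaining GLUT genes were given by a list of 6, of which SLC2A2 and SLC2A7 were not found by symbol. In MDA-MB-231 1 of 2 tested genes was called higher and 0 lower, while at least 0.5 CPM in 2 samples was reached there by SLC2A5 and SLC2A11 only. The list medians were 0.29 and -0.29 on the log2 scale, resting on 2 and 3 genes. In MDA-MB-468 0 of 3 tested genes were called higher and 2 lower, namely SLC2A14 (above) and SLC2A11. Over all genes tested, 5.71% were called higher and 9.37% lower in MDA-MB-231, and 24.9% and 22.7% in MDA-MB-468. So few genes give no result about the list. SLC2A11, which encodes GLUT11, held 331.3, 319.6, 351.8 and 326.0 normalized reads in low-glucose MDA-MB-468 and 260.5, 239.2, 282.7 and 304.3 in high glucose, without overlap. Its log2 fold change was -0.29 there (adjusted p 0.00394 in limma) and 0.43 (adjusted p 0.048) in MDA-MB-231, where the groups overlapped and the call was lost in 11 of 18 alternatives. The 2 responses differed by -0.72 (limma adjusted p 0.00247).

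Of the sodium-coupled and other sugar transporters, 5 were tested per line. In MDA-MB-231 1 was called higher and 0 lower, against 5.71% and 9.37% of all genes. In MDA-MB-468 2 were called higher and 1 lower, against 24.9% and 22.7%. The median log2 fold changes were 0.04 and 0.02 in the same order, and counts this small are not a result about the list. SLC5A1, encoding the sodium-glucose cotransporter SGLT1, had 0 reads in all 8 MDA-MB-231 libraries, which allows up to 0.123 to 0.192 CPM per library. In MDA-MB-468 it held 369.3, 379.3, 372.0 and 362.0 normalized reads in low glucose, and 777.7, 709.0, 772.6 and 778.0 in high glucose. The groups were far apart, with a log2 fold change of 1.03 (adjusted p 1.41e-10 in limma, SE 0.05). Per length it went from 4.88 ± 0.0754 to 9.78 ± 0.370 RPKM, next to 53.0 RPKM for SLC2A1 in high glucose. SLC50A1, a sugar transporter of the SWEET family, rose by 0.22 in both lines (adjusted p 0.00305 for MDA-MB-231 and 0.000159 for MDA-MB-468 in limma). SLC45A4 fell by 0.19 in MDA-MB-468 (limma adjusted p 0.00415), a call lost with the length correction (0.0699).

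Of the hexokinases and related sugar kinases, 0 of 5 tested were called in MDA-MB-231 by limma, against 15.1% of all genes. For MDA-MB-468, 1 of 4 was called higher and 1 lower, against 24.9% and 22.7% of all genes. The list medians were 0.07 and 0.02 in the same order of lines, and counts this small are not a result about the list. HK1, the widely expressed mitochondrial hexokinase, rose from 3182 ± 42.4 to 4242 ± 90.1 normalized reads in the MDA-MB-468 line (log2 fold change 0.41, adjusted p 7.79e-09 in limma). In MDA-MB-231 it averaged 4009 ± 103.4 and 3949 ± 27.0 (-0.02, adjusted p 0.701 in limma). HK2, an inducible hexokinase common in tumors, fell in MDA-MB-468 from 1387 ± 21.3 to 1267 ± 54.4 (log2 fold change -0.13, adjusted p 0.0102 in limma), a call lost with the length correction (0.0895). In MDA-MB-231 HK2 averaged 2782 ± 65.0 and 2651 ± 129.2 normalized reads (log2 fold change -0.07, limma adjusted p 0.241). The HK1 responses differed between the lines by 0.44 (limma adjusted p 3.82e-08), and those of HK2 by -0.06 (adjusted p 0.409).

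**Figure D4:**
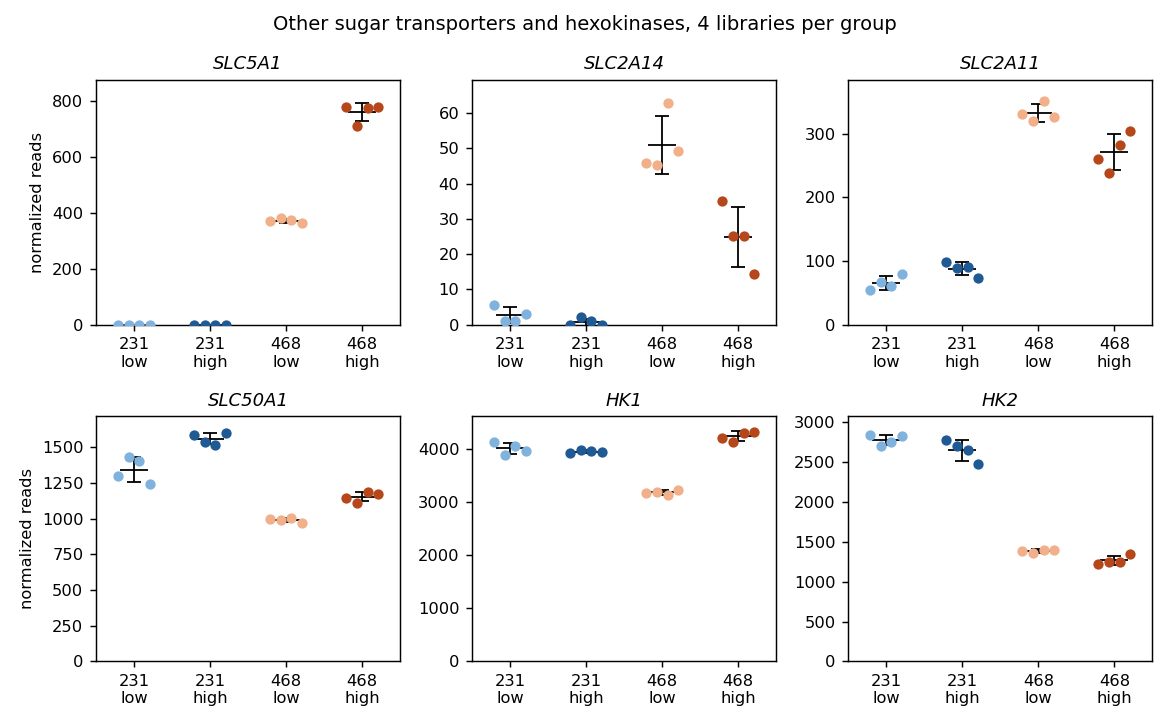
Normalized reads of 4 further sugar transporter genes and the hexokinases HK1 and HK2 in every library (y axes from 0, a different scale per gene), with points for libraries and black bars for the mean ± SD of 4 replicates; the x labels shorten MDA-MB-231 and MDA-MB-468 to their digits. SLC5A1 is at 0 in all MDA-MB-231 libraries and goes from 370.7 to 759.3 in MDA-MB-468, where HK1 rises from 3182 to 4242.

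Genes that move GLUT1 and GLUT4 between the surface and internal membranes were given by a list of 23, of which TXNIP was not found by symbol. In MDA-MB-231 1 of 22 was called higher and 3 lower, and in MDA-MB-468 5 were higher and 5 lower, with list medians of -0.01 in each line against 0.00 over all genes. Over all genes tested, 5.71% were called higher and 9.37% lower in MDA-MB-231, against 24.9% and 22.7% in MDA-MB-468, so the MDA-MB-468 counts lie near the background and are not a result about the list. AKT1, the kinase downstream of insulin, fell by 0.21 on the log2 scale in MDA-MB-231 (limma adjusted p 0.00103). RAB8A, a GTPase of GLUT4 vesicles, fell by 0.16 in MDA-MB-231 (limma adjusted p 0.00858) and rose by 0.12 in MDA-MB-468 (adjusted p 0.0124), a difference of 0.28 (adjusted p 0.000225). SORT1, the sortilin of GLUT4 vesicles, fell by 0.11 in MDA-MB-231 (limma adjusted p 0.0226), though 6 of 18 alternatives lost this call, quantile rescaling, the replicate block and the length correction among them.

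The retromer returns GLUT1 from endosomes to the surface. In MDA-MB-468 its subunit VPS29 rose by 0.24 and VPS26A fell by 0.16 (limma adjusted p 0.00178 and 0.00169, the latter 0.0693 with the GC correction). Of its other listed subunits, VPS26B rose by 0.14 and VPS35 changed by -0.14 (limma adjusted p 0.00183 and 0.00213). GIPC1, a GLUT1-binding adaptor, rose by 0.18 in this line (limma adjusted p 0.00113). ARRDC4, an arrestin-domain relative of TXNIP linked to GLUT1 removal from the surface, was singled out after its values were seen, since its means were under the 5 CPM required for naming. It averaged 17.2 ± 6.81 and 36.5 ± 12.3 normalized reads in low- and high-glucose MDA-MB-231 and 50.8 ± 6.81 and 21.1 ± 3.41 in MDA-MB-468. The interaction term was -2.29 (limma adjusted p 0.000226).

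Transcription factors that act on GLUT genes were given by a list of 13, all tested. In MDA-MB-231 0 were called higher and 1 lower, against 5.71% and 9.37% of all genes. In MDA-MB-468 4 were higher and 3 lower, again close to the 24.9% and 22.7% of all genes and not a result about the list. Each count of 0 called by limma in a list and direction was also 0 in edgeR and DESeq2, and at an unadjusted p under 0.05 the only addition was 1 transcription factor, EPAS1, higher in MDA-MB-231. The median log2 fold change of this list was 0.00 in MDA-MB-231 and -0.05 in the MDA-MB-468 cells. MYC fell by 0.23 in MDA-MB-231 (from 4109 ± 47.6 to 3507 ± 75.9 normalized reads, limma adjusted p 3.46e-05). In MDA-MB-468 MYC averaged 1795 ± 45.8 and 1712 ± 27.3 normalized reads in low and high glucose (log2 fold change -0.07, limma adjusted p 0.109). SP1, a GC-box binding factor, fell by 0.42 in MDA-MB-468 (from 3051 ± 38.3 to 2285 ± 103.3 normalized reads, limma adjusted p 5.88e-08).

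MEF2C, of the family that acts on the GLUT4 gene in muscle, rose by 0.48 in MDA-MB-468 (limma adjusted p 0.000526). The family members MEF2A (-0.06) and MEF2D (0.10) were not called in this line (limma adjusted p 0.353 and 0.0712). A link of these genes to SLC2A4 was not tested. EPAS1, the hypoxia-inducible factor HIF-2α, rose by 0.19 in the same line (limma adjusted p 0.000332). Of the other listed hypoxia-inducible factor genes, HIF1A rose by 0.15 and ARNT changed by -0.17 there (limma adjusted p 0.0019 and 0.00645). MLXIPL, the carbohydrate response factor ChREBP, was also singled out after its values were seen, at 24.3 ± 1.20 and 41.3 ± 7.97 normalized reads in low- and high-glucose MDA-MB-468 (log2 fold change 0.73, limma adjusted p 0.00485). In low- and high-glucose MDA-MB-231 MLXIPL averaged 33.4 ± 2.86 and 31.8 ± 7.93 (log2 fold change -0.10, limma adjusted p 0.809). The related genes MLX (-0.09) and MLXIP (0.03) were not called in MDA-MB-468 (limma adjusted p 0.105 and 0.713).

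For the 5 transporters called with glucose, the genes with the most similar pattern were found by the root mean square difference of log2 values, centered on each line's mean, over the 16 samples and 10018 candidate genes. SLC2A1 was nearest to TUBB, a tubulin gene (0.0312), and NUP188, a nucleoporin gene (0.0318), where the median candidate lay at 0.149. TUBB had log2 fold changes of -0.28 (MDA-MB-231) and 0.11 (MDA-MB-468 line). SLC2A10 was nearest to SMARCD3 (0.138) and COMMD1 (0.145), with a median of 0.384, and SMARCD3 had fold changes of 0.24 and 0.74 in the same order of lines.

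SLC2A8 was nearest to DNAL4 (0.111) and C11orf68 (0.122), with a median distance of 0.243. SLC2A6 was nearest to ZBTB47 (0.105) and RXRB (0.106), with a median of 0.218. SLC2A3 was nearest to CELSR3 (0.517) and SWT1 (0.522), with a median of 0.990. Its high-glucose MDA-MB-468 libraries held 1 to 7 reads each, and the spread of such low counts enters its distance to every candidate. Whether another gene shares the SLC2A3 pattern closely therefore cannot be decided from these distances. For CELSR3 the MDA-MB-468 response was -1.61 on the log2 scale. These distances describe the centered patterns only, and the line means, which were removed, differed between a transporter and its neighbors.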

How the data were processed

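RNA sequencing was analyzed in 16 samples grouped by the labels. Per the study's methods, the authors trimmed reads, aligned them with TopHat to hg19 with an Ensembl annotation and counted reads per gene, while the submitters' processing notes name hg38 and edgeR. The counting program is not given in the sources used here. The deposited values are a normalized signal: reads divided by a library size factor, from which whole reads were recovered for 100% of values (tolerance 0.01). Symbols were found for 17647 of 18332 Ensembl IDs. Coordinates are from GENCODE lifted to GRCh37, and promoters from RefSeq GRCh38.p14.

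Tests covered genes reaching 0.5 CPM in 2 or more samples of a comparison, and were run with limma 3.58.1 (R 4.3.3, lmFit, eBayes with trend, two-sided) on log2(value + 1), with Benjamini-Hochberg adjustment over all genes tested and a threshold of 0.05. The glucose response used the 8 samples of a line, and the interaction and line contrasts all 16 samples. Intervals are at the 95% level. Floors of 3 reads and counting intervals cover counting error only. Libraries held 14094597 to 24425916 reads.

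The alternatives were a pseudocount of 0.5, no filter, a stricter filter (1 CPM in 4 samples), TMM and quantile rescaling, edgeR 4.0.16 and DESeq2 1.42.0 on the recovered reads, the replicate number as a block, corrections for length and GC content, SLC2A3 summed with SLC2A14, and leaving out each library. All members are named. Of each list, at most the 3 largest called changes per line with a mean of at least 5 CPM and no overlap are named. The 2 nearest genes of each called member are named too. VPS35, VPS26B, MEF2A, MEF2D, HIF1A, ARNT, MLX and MLXIP were added beside related genes, without alternatives. The members, gene lists and marker lists were chosen with earlier results of these data known.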

Additional observations from a re-analysis of the deposited data

Results flagged for a closer look

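In groups of 4, a library far from its 3 neighbors was looked for in the 32 combinations of transporter and group. Such a library appeared in 3 of the 32, where chance gives about 1 in every 20 combinations. Whether 3 exceeds chance was not tested. SLC2A3 had 1387 normalized reads in MDA-MB-231 low glucose replicate 3, whose gap to the next library took 0.899 of the group's range, although that range was narrow. SLC2A6 had 118.3 in MDA-MB-468 low glucose replicate 2 (0.864 of the range), and without this library the difference of the SLC2A6 response between the lines changed sign, from 0.10 to -0.08. SLC2A10 had 117.7 in MDA-MB-468 low glucose replicate 4 (0.89 of the range), still below every high-glucose library.

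The response to high glucose differed between the lines for 3 transporters in limma's interaction term, given as MDA-MB-468 minus MDA-MB-231. SLC2A1 differed by 0.30 (adjusted p 8.17e-05), with a fall in 4 of 4 high-glucose MDA-MB-231 libraries below every low-glucose library and overlapping groups in MDA-MB-468. SLC2A3 differed by -2.62 (adjusted p 4.38e-05), a value that rests on 103 and 15 reads in MDA-MB-468 and became -1.45 (adjusted p 9.02e-05) with SLC2A14 added. SLC2A10 differed by 0.68 (adjusted p 0.00992).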

How the results depend on the processing

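The number of transporters called was 3 in MDA-MB-468 and 3 for the interaction under each of the 11 alternatives that kept all libraries, edgeR and DESeq2 included. In MDA-MB-468 this count includes SLC2A3, with 1 to 7 reads per high-glucose library. SLC2A3 passed the filter and the stricter filter there only through its low-glucose libraries, so its unchanged call is no independent support. In MDA-MB-231 it was 2 and became 1 with the replicate block, the length correction and the GC correction, each of which lost SLC2A6 (the cause was not tested). Between the lines it was 7 to 8 in either glucose condition. Leaving out 1 library gave 1 to 2 calls in MDA-MB-231, 3 in MDA-MB-468, 3 to 4 for the interaction, and 7 to 8 between the lines in low and in high glucose. SLC2A4 lost its call between the lines in low glucose under quantile rescaling (0.19).

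The signs that turned belonged to responses that were not called. SLC2A12 in MDA-MB-468 was 0.0224 with the length correction and 0.0436 with the GC correction against -0.02, and its interaction was -0.0011 with quantile rescaling against 0.02. Over the left-out libraries SLC2A4 spanned -0.0069 to 0.256 in MDA-MB-231 and -0.185 to 0.0683 in MDA-MB-468, SLC2A8 -0.0153 to 0.133, SLC2A13 -0.0302 to 0.0766 and SLC2A12 -0.0885 to 0.0131 in MDA-MB-231, SLC2A12 -0.0796 to 0.0318 in MDA-MB-468, and the interaction -0.0757 to 0.166 for SLC2A6 and -0.0379 to 0.0775 for SLC2A12. DESeq2 gave no adjusted p for SLC2A4 in MDA-MB-231.

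The labels do not say whether replicate numbers pair the samples. Same-numbered deviations correlated between -0.28 and 0.127 in MDA-MB-231 and between -0.0824 and 0.0662 in MDA-MB-468 over 9484 genes. These correlations cannot show that the samples were unpaired. With the replicate block the calls numbered 1 in MDA-MB-231, 3 in MDA-MB-468, 3 for the interaction, and 8 and 7 between the lines in low and high glucose, and 1624 against 2245 over all genes in MDA-MB-231. Depth limits SLC2A3 and SLC2A13 in MDA-MB-468 and SLC2A4 in both lines, which had under 50 reads per library.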
